A study of Mus musculus with 21 samples.

Results

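Passaged cells of the stromal vascular fraction of mouse fat (P1) were compared with the fraction as it came out of the tissue (P0 day 0). Of the 21 libraries of the study, 6 entered this comparison, 3 in each group, chosen by their labels. The mice were C57BL/6J females of 8 to 12 weeks, and the tissue was their inguinal subcutaneous fat without its lymph nodes. The labels give no transgene or drug. The P1 group held cells that had spent 28 days in primary culture, were passaged once and were then kept for 28 days more in a growth medium with 10% serum. The P0 day 0 group held the fraction after 30 min of enzymatic digestion, straining and lysis of red blood cells, with no culture. The other groups of the study were primary cultures of days 3, 7, 14, 21 and 28. The labels do not say whether a library came from 1 mouse, a pool of mice or 1 dish, so the p-values below measure only the spread between libraries. For single genes, that spread and the SE were estimated over all 21 libraries of the study. No culture of the same total age was left unpassaged, so passage and added time in culture cannot be told apart.

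The stromal vascular fraction is what is left of digested fat once the floating adipocytes are removed. It holds fibroblast-like and preadipocyte cells, vessel cells and leukocytes, and in the female inguinal pad, which encloses the mammary gland, it can also hold mammary epithelial cells. On plastic and in serum, adherent fibroblast-like cells generally come to dominate such cultures. Freshly dissociated cells are known for high levels of immediate-early genes, which respond to stimulation within minutes without new protein synthesis. The comparison asks which genes set long-cultured cells apart from the fresh mixture.

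The deposited table gives relative log2 values, from which a scaled level was recovered for each gene model. A scaled level is a read count multiplied by 1 factor per library. Levels of 16 and 30 are floors that stand for 0 reads and for a scaled value under 30. Between 2753327 and 3714218 reads were recovered above the floor in the P1 libraries, and between 2669320 and 3868254 in the day 0 libraries. Gene models above the floor numbered 4458 to 4703 in P1 libraries and 7387 to 7408 in day 0 libraries, a difference of -2821 in the means (exact permutation test, two-sided, p = 0.1, the smallest p that 3 against 3 allows). The upper floor stood at 32.0 to 40.5 reads in P1 and at 18 to 24.6 reads at day 0, so these counts use different read limits. At 1 limit of more than 40 reads, 4307 to 4578 gene models were found in P1 and 5019 to 5952 at day 0 (difference of -958, exact permutation p = 0.1). Correlations of log2 levels, taken over gene models that are no independent replicates, were 0.9526 to 0.9552 within P1, 0.9447 to 0.9483 within day 0 and 0.7276 to 0.7383 between the groups.

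Symbols and values fit together in only part of the deposited table. Nuclear genes are therefore named only from 4 regions of GRCm38, running from 3.5 to about 60 Mb on chromosome 4, 3.4 to about 31 Mb on chromosome 6, 3.3 to about 13 Mb on chromosome 9 and 9.6 to about 38 Mb on chromosome 15. Of 509 protein-coding genes there, 421 (82.7%) exceeded the floor somewhere in the 21 libraries. Elsewhere in the nuclear genome the number was 6642 of 14722 (45.1%). With the 13 mitochondrially encoded genes, 522 genes could be named, and 415 of them passed the filter of a level above the floor in at least 3 of the 21 libraries. Many defining markers of fat cell types lie outside these regions and were not used here. A fibroblast list of 5 genes (Col1a2, Col15a1, Svep1, Osr2, Lpar1) was above the floor in all 6 libraries, with a summed level of 92800 to 128000 in P1 and 8240 to 9480 at day 0. Col1a2 made up nearly all of this sum. Svep1 and Lpar1 were also called higher in P1, and Col15a1 (0.38) and Osr2 (-0.50) were not called as deposited.

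Most tested gene models differed between P1 cells and the fresh fraction. With limma, 5080 of 7767 tested gene models (65.4%) were called at an adjusted p under 0.05. In P1, 632 (8.14%) were higher and 4448 (57.3%) were lower, and 368 and 3095 of the tested gene models differed by more than 1 log2 unit upward and downward. The split of directions depended on the scaling. For the 3172 gene models that no library had at the floor, the median difference was -0.63 as deposited, against 0.31 after quantile normalization and 0.03 after scaling each library to the median of these gene models. Quantile normalization called 51.3% of gene models, 2003 higher (25.8%) and 1979 lower (25.5%). Median scaling called 54.6%, 1838 higher (23.7%) and 2406 lower (31.0%). Differences of single genes below are in the deposited scaling, and a gene is said to have risen or fallen only where limma made the call in all 3 scalings, unless another wording is used. Differences of genes at a floor in some libraries depend on where the floor sits, and "at least" marks a fold computed against the upper floor of 30.

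Among the 402 tested nuclear genes of the named regions, 67 were called higher and 221 lower in P1, beside 8.14% and 57.3% of all tested gene models. Their median difference was -0.55, against -0.78 over all tested gene models. Every day 0 library lay below every P1 library in 8.79% of all tested gene models, and above every P1 library in 58.4%. All 67 higher calls and 110 of the lower calls held in the 3 scalings. Over all tested gene models, 630 higher calls (8.11%) and 1879 lower calls (24.2%) held in them. The list counts below are set beside these shares, but all nuclear list members come from the named regions. There, 67 and 110 of 402 genes held, so higher calls were more frequent than over all gene models. Lists and members were also chosen with earlier results of these data known, so the counts describe the lists and do not test them. Both rescalings shift differences upward. Holding in all 3 scalings is therefore a hard condition for lower calls and hardly a test of higher calls. In addition, the calls of 16 of the 402 named-region genes changed direction after quantile normalization, beside 213 of all 7767 tested gene models. Of 507 nuclear genes of the regions with recovered levels, 311 were above the floor in all 6 libraries, beside 3662 of all 30466 gene models. Another 31 were above it in all 3 day 0 libraries and in no P1 library, beside 1687 of all 30466. The floor stood at fewer reads at day 0 than in P1, so the limits differ here as well. The reverse pattern was found for 5 genes, beside 100 of all 30466. They were Gdf6, Atp6v0d2, Foxp2, Mmp16 and Anks6. Anks6, an ankyrin repeat protein named only to complete that count, was at least 2.78-fold higher in P1 and was not called without P1 replicate 2 or 3 or without any 1 of the day 0 libraries (limma adjusted p 0.053 to 0.105).

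**Figure D1:**
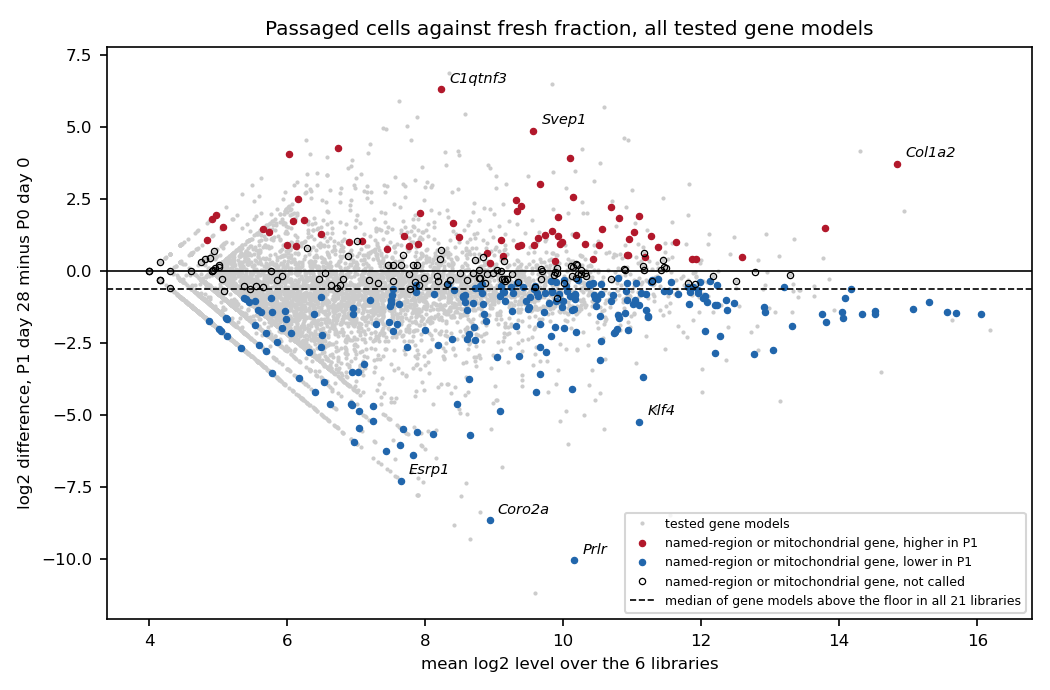
Difference in log2 level between P1 day 28 and P0 day 0 (vertical axis) against the mean log2 level over the 6 libraries (horizontal axis) for 7767 tested gene models. Red and blue points are named-region or mitochondrial genes called higher or lower in P1, open circles are those not called, and the dashed line is the median of -0.63 over the 3172 gene models never at the floor (the median of all plotted is -0.78). The straight edges at the left come from the floors, and the lowest named point is Prlr at -10.06.

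Of the 19 gene lists examined, the epithelial genes had the lowest median difference. Prlr, the receptor for prolactin, had levels of 89.0, 30.0 and 16 in the P1 libraries, against 27300, 28300 and 66900 in the day 0 libraries. Every day 0 library stood far above the highest P1 library, and P1 replicate 1 was the only P1 library with Prlr above the floor. Prlr fell by 10.06 ± 0.49 log2 units in P1 (SE, limma adjusted p 1.28e-11), and the difference was -10.73 without P1 replicate 1. Pgr, the progesterone receptor, had levels of 31.9, 30.0 and 16 in P1 and 2140, 1830 and 2280 at day 0, and fell by 6.38 ± 0.35 log2 units (adjusted p 7.6e-11). In bulk RNA, fewer cells of a type and less RNA per cell cannot be told apart.

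Esrp1, a splicing factor that sets epithelial isoforms, was at 16 in all P1 libraries and at 2350, 2710 and 2440 at day 0, so it was at least 83.2-fold lower in P1. Grhl2, a transcription factor of epithelial cells, was also at 16 in all P1 libraries, against 969, 1120 and 885 at day 0, and was at least 32.9-fold lower. Aqp3, a channel for water and glycerol, was at the floor in P1 and at 1420, 1560 and 1530 at day 0, at least 50-fold lower. None of these genes had a P1 library above the floor. Cadps2, which acts in the release of dense-core vesicles, was at least 54.0-fold lower in P1, and Hepacam2, an adhesion protein, at least 16.4-fold lower. Ptpn3, a tyrosine phosphatase, fell by 3.5 ± 0.34 log2 units.

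Of the 10 tested genes of the epithelial list, 8 fell (24.2% of all gene models did), 1 rose (8.11% of all did) and 1 depended on the scaling, with a median of -6.00 against -0.78 over all tested gene models. Aqp3 and Hepacam2 exceeded the floor only at day 0. They passed the filter for testing through that group alone and could not have been called higher in P1. The gene that depended on the scaling was Cdh17, a cadherin, with levels of 30.0 in all P1 libraries and 55.8, 71.8 and 63.5 at day 0. It was called lower only in the deposited scaling. The gene that rose was Cftr, a chloride channel, with 30.0, 70.8 and 83.4 in P1 and 16 in all day 0 libraries (difference of 1.81 ± 0.44, limma adjusted p 0.00163). Its groups did not overlap, although P1 replicate 1 was at the upper floor. The summed level of 7 epithelial markers was 193 to 229 in P1 and 34300 to 74200 at day 0, with 0 of 7 above the floor in all P1 libraries and 6 of 7 in all day 0 libraries. Prlr, at 27300 to 66900, made up most of the day 0 sum. Values at a floor entered the sums as they stood, which holds for most of the P1 values. Esrp1, Grhl2, Cdh17 and Aqp3 were at the floor in every P1 library, and Cftr in every day 0 library.

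**Figure D2:**
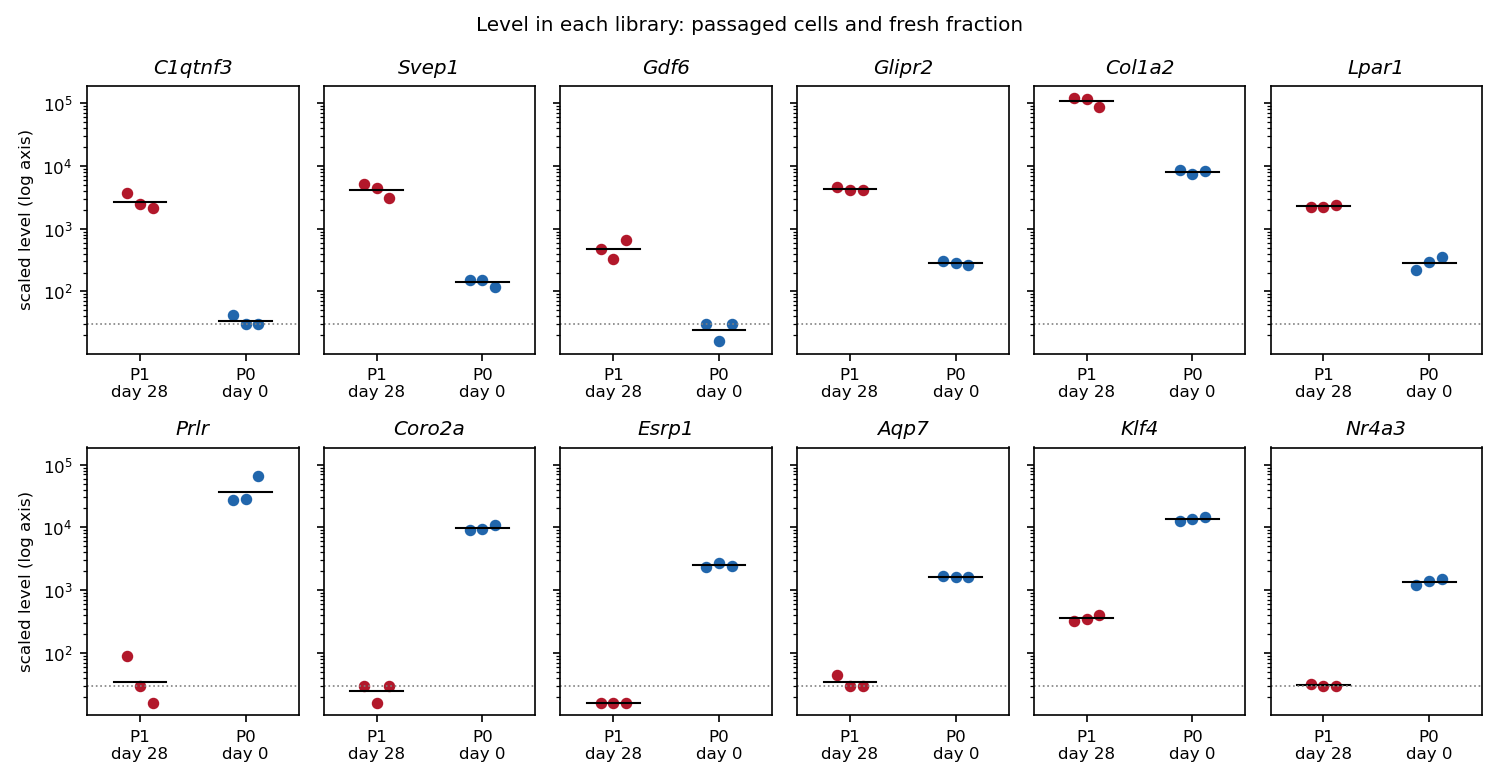
Scaled level (log axis) of 12 genes in each library, P1 day 28 (red) left of P0 day 0 (blue). Black bars are geometric means of 3 libraries and the dotted line is the floor at 30. The upper row holds genes higher in P1, such as Col1a2 at 86800 to 120000 against 7460 to 8510, and the lower row holds genes lower in P1, such as Esrp1 at 16 against 2350 to 2710.

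The 4 immediate-early genes of the list were all lower in P1. Klf4, a zinc-finger transcription factor, had levels of 320, 346 and 405 in P1 libraries, against 12500, 13400 and 14600 in day 0 libraries. The libraries of each group lay close together and far from the other group, with a fall in Klf4 of -5.24 ± 0.19 log2 units (limma, adjusted p 1.83e-13). Nr4a3, an orphan nuclear receptor, was at 31.9, 30.0 and 30.0 in P1 and at 1190, 1420 and 1520 at day 0, and fell by 5.49 ± 0.39. Only P1 replicate 1 was above the floor. Gem, a small GTP-binding protein, had levels of 425, 216 and 211 in P1 and 4390, 4870 and 4780 at day 0, a difference of -4.12 ± 0.37. Klf10, a transcription factor induced by TGF-beta, remained well above the floor in P1, with 1680, 1670 and 1890 against 14000, 12200 and 11900 at day 0 (difference of -2.86 ± 0.10). All 4 tested members of the list fell, beside 24.2% of all gene models, with a median of -4.68 against -0.78. The list was chosen with earlier results of these data known, so this count is no test of it.

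The promoter of Nr4a3 is shown because many immediate-early promoters carry sites for CREB, a factor activated by cyclic AMP and calcium. The window runs from 250 bases before to 50 bases after the gene start in RefSeq (GRCm38.p6, chr4:48045055-48045354, plus strand), and capitals mark matches to TGACG, the short form of the CREB site, on either strand.

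Nr4a3: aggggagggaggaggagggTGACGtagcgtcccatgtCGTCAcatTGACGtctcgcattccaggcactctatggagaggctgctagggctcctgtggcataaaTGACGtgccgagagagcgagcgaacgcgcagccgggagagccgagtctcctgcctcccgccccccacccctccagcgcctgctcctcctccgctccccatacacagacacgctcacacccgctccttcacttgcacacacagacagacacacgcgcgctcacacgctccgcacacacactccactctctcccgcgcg

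The 4 matches in Nr4a3 begin at -231, -213, -205 and -147 from the start. The window of Klf4 (chr4:55532426-55532725, minus strand) held 1 match, at -232. For Gem and Klf10, the other genes of the list, no RefSeq window was available. The share of all windows with 4 matches was not counted. Of 32851 mouse promoter windows of the same length, 20.8% held TGACG on either strand, and 1.79% held the full site TGACGTCA, which neither Nr4a3 nor Klf4 had in its window. A match is a description of the letters and says nothing of binding in these cells.

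Genes of adipocytes did not move together. Aqp7, the channel through which glycerol leaves fat cells, had levels of 43.8, 30.0 and 30.0 in P1 and 1680, 1600 and 1600 at day 0. The day 0 libraries lay close together and well above all P1 libraries, and Aqp7 fell by 5.58 ± 0.25 log2 units (limma adjusted p 4.12e-12). Hilpda, a lipid droplet protein induced by low oxygen, was at 449, 371 and 427 in P1 and at 2040, 1850 and 2100 at day 0 (difference of -2.27 ± 0.14). Lep, the hormone leptin, was at 16 in all P1 libraries and at 87.0, 36.7 and 47.7 at day 0, at least 1.78-fold lower in P1. Aqp7 is also made by capillary endothelium, and it was counted among weak markers of vessel cells, whose summed level over 3 genes was 1740 to 2270 in P1 and 6790 to 7490 at day 0.

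C1qtnf3, a secreted adipokine of the C1q and TNF family, went the other way. It had levels of 3650, 2490 and 2110 in P1 libraries, against 42.7, 30.0 and 30.0 in day 0 libraries. The lowest P1 library was far above the only day 0 library over the floor, and C1qtnf3 had the largest rise of the nameable genes, 6.31 ± 0.29 log2 units (limma adjusted p 6.26e-12). Fam3c, another secreted protein, was at 7230, 6150 and 8940 in P1 and at 5040, 5330 and 5190 at day 0, a rise of 0.50 ± 0.13. Of the 6 tested members of the adipokine and fat-storage list, 2 rose and 3 fell in all scalings, beside 8.11% and 24.2% of all gene models, and the median was -1.29. Among these, Aqp7 passed the filter for testing only through its day 0 libraries.

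**Figure D3:**
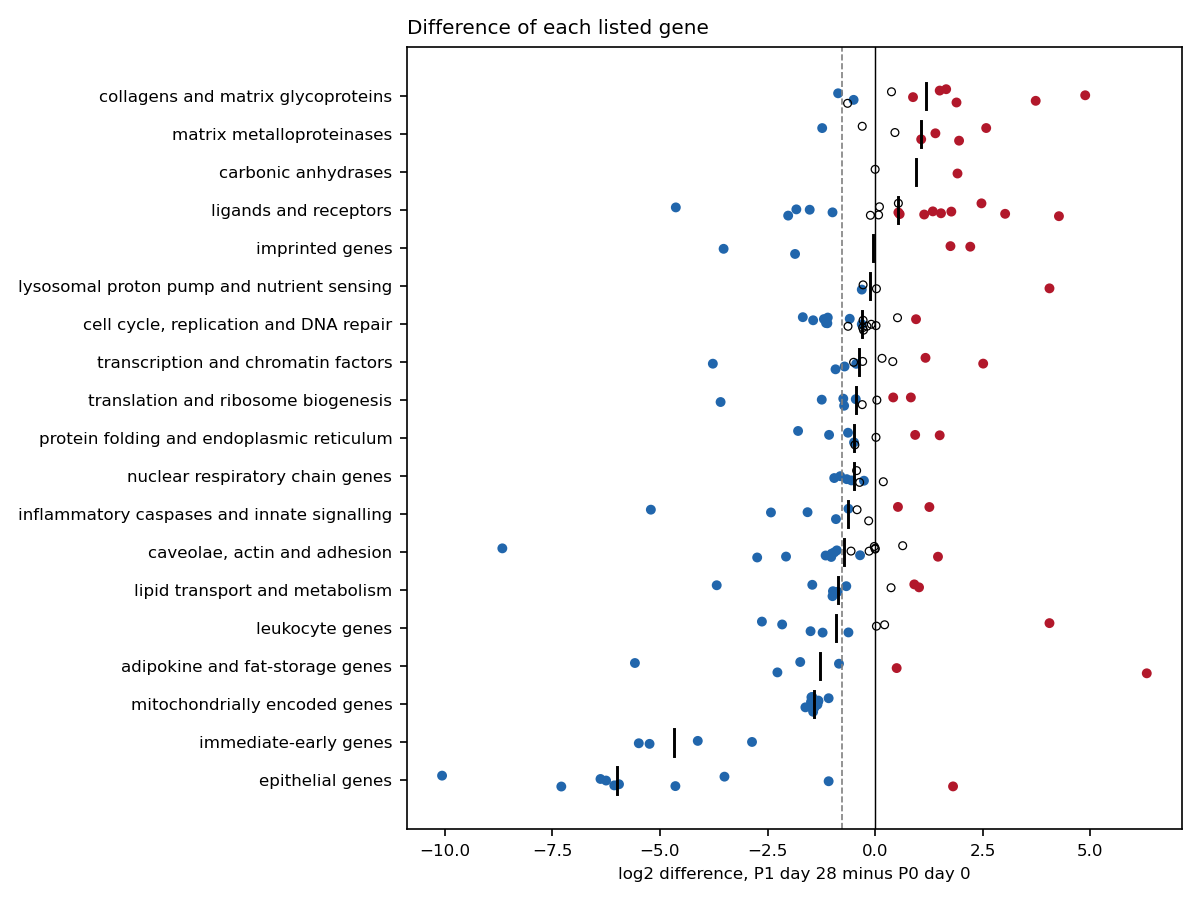
Difference in log2 level between P1 day 28 and P0 day 0 for each tested member of 19 gene lists. Filled red and blue points were called higher and lower in P1 in the deposited scaling, open points were not called, black ticks are list medians, and the dashed line is the median of -0.78 over all tested gene models. Medians run from -6.00 for the epithelial list to 1.19 for the collagens and matrix glycoproteins.

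Several genes of the extracellular matrix were among the largest rises. Col1a2, which encodes a chain of type I collagen, had levels of 120000, 117000 and 86800 in P1 libraries, against 8510, 7460 and 8300 in day 0 libraries. The groups did not overlap and the rise was 3.73 ± 0.12 log2 units (limma adjusted p 3.25e-14). Svep1, a large secreted protein of the vessel and stromal matrix, was at 5080, 4500 and 3060 in P1 and at 153, 154 and 117 at day 0, a rise of 4.88 ± 0.22 log2 units, or 29.4-fold. Part of Svep1 overlaps Gm26889 on the opposite strand, and reads of overlapping genes cannot be told apart without strand.

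Smaller rises were found for other matrix genes. Reck, a membrane-anchored inhibitor of metalloproteinases, was at 2210, 1760 and 1710 in P1 and at 639, 319 and 638 at day 0 (1.89 ± 0.26). Col28a1, a collagen found around peripheral nerves, was at 911, 701 and 335 in P1 and at 243, 160 and 177 at day 0 (1.65 ± 0.40). Calu, a calcium-binding protein of the secretory pathway, was at 31300, 15900 and 27900 in P1 and at 6400, 6650 and 14300 at day 0 (1.5 ± 0.25). In both genes the groups did not overlap, although the lowest P1 library of Calu was close to the highest day 0 library. Adamts12, a secreted metalloproteinase, rose by 0.88 ± 0.16.

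Of the 10 tested matrix genes, 6 rose and 0 fell in all 3 scalings, beside 8.11% and 24.2% of all gene models, with a median of 1.19 in the deposited scaling. Col15a1, a collagen of basement membranes, had 561, 426 and 460 in P1 and 355, 252 and 560 at day 0. Its groups overlapped, and it was called higher only after rescaling (difference of 0.38 as deposited, 1.18 by quantiles, 1.04 by the median). Thsd7a, a membrane protein with thrombospondin repeats, was at 413, 453 and 356 in P1 and at 800, 796 and 621 at day 0 and was called lower only as deposited (-0.86, -0.13 by quantiles). Tfpi2, an inhibitor of serine proteases, was at 202, 135 and 276 in P1 and at 297, 281 and 258 at day 0. It was called lower as deposited (-0.50, adjusted p 0.0402) and higher by quantiles (0.43). The deposited call was lost without P1 replicate 1 or 2 or any 1 of the day 0 libraries (adjusted p 0.0512 to 0.28), and the difference was -0.23 without P1 replicate 2. Matn2, a matrilin, was not called in any scaling, at 215, 258 and 97.5 in P1 and 332, 214 and 290 at day 0. Its difference of -0.64 (limma adjusted p 0.0669) passed the test without P1 replicate 1 (-0.79, 0.0496), without P1 replicate 2 (-0.92, 0.0156) and without day 0 replicate 2 (-0.82, 0.0395).

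The matrix metalloproteinases are enzymes that cut collagens and other matrix proteins. Mmp3, which degrades many matrix proteins and activates other pro-enzymes, had levels of 3000, 2960 and 2410 in P1 libraries, against 471, 551 and 385 in day 0 libraries. The groups were well apart, and the rise was 2.58 ± 0.36 log2 units (limma adjusted p 8.47e-06). Mmp12, the macrophage elastase, was at 1470, 1390 and 1620 in P1 and at 548, 653 and 500 at day 0 (1.4 ± 0.23). Mmp16, a membrane-bound enzyme, was at 83.8, 65.2 and 43.1 in P1 and at 16 in all day 0 libraries, at least 2.06-fold higher.

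Mmp10, a stromelysin, rose by 1.07 ± 0.32 from low values, with 53.4, 44.5 and 30.0 in P1 and 16, 16 and 30.0 at day 0, so that the groups touched at the floor. Mmp13, a collagenase, was at 151, 74.8 and 145 in P1 and at 218, 421 and 228 at day 0. It was called lower only in the deposited scaling (-1.23, adjusted p 0.00767), and the call was lost without P1 replicate 2 (-0.90, 0.053) and without day 0 replicate 2 (-0.92, 0.0513). Mmp8 was at the floor in both groups and was not called in any scaling. Mmp27 was at 46.0, 30.0 and 30.0 in P1 and at 16, 30.0 and 33.0 at day 0, and was called higher only after median scaling. Of the 7 tested family members, 4 rose and 0 fell in all scalings, against 8.11% and 24.2% of all gene models. Mmp12 shares exon bases with Mmp1b on the opposite strand.

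The promoters of Mmp3, Mmp10 and Mmp13 are shown because each of these neighbouring genes of chromosome 9 holds the same short element near its start. Capitals mark TGANTCA, the site of AP-1, a factor made of Fos and Jun proteins that is known to drive these genes. The windows are from RefSeq (GRCm38.p6, plus strand, 250 bases before to 50 after the start), at chr9:7445572-7445871 for Mmp3, chr9:7502092-7502391 for Mmp10 and chr9:7272264-7272563 for Mmp13.

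Mmp3: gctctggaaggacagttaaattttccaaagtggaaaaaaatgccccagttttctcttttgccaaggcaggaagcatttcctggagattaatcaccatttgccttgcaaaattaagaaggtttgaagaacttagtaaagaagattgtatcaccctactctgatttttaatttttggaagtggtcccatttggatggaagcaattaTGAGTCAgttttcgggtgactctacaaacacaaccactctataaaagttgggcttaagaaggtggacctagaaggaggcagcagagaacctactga
Mmp10: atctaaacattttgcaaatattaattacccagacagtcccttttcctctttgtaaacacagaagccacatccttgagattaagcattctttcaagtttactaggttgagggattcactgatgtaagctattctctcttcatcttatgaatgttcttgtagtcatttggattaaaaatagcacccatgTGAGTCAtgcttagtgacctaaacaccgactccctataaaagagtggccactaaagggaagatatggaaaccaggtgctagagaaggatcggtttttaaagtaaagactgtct
Mmp13: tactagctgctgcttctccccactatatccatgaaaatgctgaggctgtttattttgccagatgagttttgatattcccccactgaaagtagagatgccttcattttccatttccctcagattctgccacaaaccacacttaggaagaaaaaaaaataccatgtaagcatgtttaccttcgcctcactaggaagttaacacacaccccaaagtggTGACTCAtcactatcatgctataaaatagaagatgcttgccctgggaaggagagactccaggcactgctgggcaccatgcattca

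The site begins at -46 in Mmp3, at -63 in Mmp10 and at -35 in Mmp13. One of a pair of Mmp12 windows also held it, at -44, and no match was found in the windows of Mmp8, Mmp27 and Col1a2. Of 32851 mouse promoter windows, 7.81% held TGANTCA, which reads alike on both strands.

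Several ligands and receptors were higher in P1. Gdf6, a bone morphogenetic protein, had levels of 469, 328 and 669 in P1 libraries and was at the floor (30.0, 16 and 30.0) in day 0 libraries, at least 15.6-fold higher. Wnt2, a secreted Wnt ligand, was at 83.8, 126 and 258 in P1 and at 36.1, 38.4 and 48.9 at day 0 (1.77 ± 0.29). Pdgfd, a platelet-derived growth factor, was at 3620, 3390 and 2990 in P1 and at 1670, 1100 and 1250 at day 0 (1.34 ± 0.15). The groups of all 3 ligands were apart.

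Among receptors, Lpar1, which binds lysophosphatidic acid, had levels of 2250, 2250 and 2410 in P1 and 220, 294 and 353 at day 0, a rise of 3.02 ± 0.16 log2 units (limma adjusted p 5.39e-11). Npr3, the receptor that clears natriuretic peptides, was at 1600, 1620 and 1300 in P1 and at 225, 199 and 440 at day 0 (2.47 ± 0.27). P1 libraries lay above all day 0 libraries in both. Smaller rises were found for Smo, the transducer of hedgehog signals (0.57 ± 0.14), and Il11ra1, a receptor for interleukin 11 (0.54 ± 0.13). Rxfp3, a relaxin-3 receptor, rose by 1.53 ± 0.41 at levels of 64.5, 95.4 and 30.0 in P1 and 16, 16 and 30.0 at day 0, with overlap at the floor.

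Other receptors were lower in P1. Cntfr, which binds ciliary neurotrophic factor, was at the floor in P1 and at 304, 740 and 982 at day 0, at least 20.1-fold lower. Met, the receptor for hepatocyte growth factor, was at 1140, 1020 and 993 in P1 and at 2550, 3400 and 3160 at day 0 (-1.52 ± 0.27, limma adjusted p 0.000105). Tspan12, a tetraspanin that aids Norrin signalling, was at 956, 685 and 1020 in P1 and at 3700, 3290 and 3630 at day 0 (-2.02 ± 0.15). Epha7, an ephrin receptor, was at 149, 115 and 61.9 in P1 and at 333, 337 and 422 at day 0 (-1.83 ± 0.32). No P1 library of these genes reached the lowest day 0 library. Of the 18 tested ligands and receptors, 9 rose, against 8.11% of all gene models, and 4 fell, near the 24.2% of all gene models, with a median of 0.54. Penk, the enkephalin precursor, was not called in any scaling, with 349, 894 and 311 in P1 and 529, 384 and 606 at day 0.

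Further large rises came from genes of varied roles. Glipr2, a Golgi-associated protein, had levels of 4590, 4180 and 4120 in P1 libraries, against 305, 281 and 259 in day 0 libraries. Its libraries were tightly grouped, and the rise of 3.93 ± 0.09 log2 units had the lowest adjusted p of the named-region genes in limma (1.15e-15). Atp6v0d2, a subunit of the proton pump of macrophages and osteoclasts, was at 222, 301 and 277 in P1 and at 16 in all day 0 libraries, at least 8.82-fold higher. Foxp2, a forkhead transcription factor, was at 151, 199 and 168 in P1 and at 30.0 in all day 0 libraries, at least 5.71-fold higher. Car8, a carbonic anhydrase relative without enzyme activity, was at 4170, 3360 and 5540 in P1 and at 1240, 1030 and 1140 at day 0, a rise of 1.91 ± 0.49.

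The remaining members of the 15 largest rises were Mdfic, an inhibitor of MyoD-family factors (2.27 ± 0.21), Sgce, an imprinted sarcoglycan (2.21 ± 0.14), Ank, a transporter involved in pyrophosphate export (2.08 ± 0.46), and Tstd3 (2.00 ± 0.15). Tstd3 shares exon bases with Ccnc on the opposite strand. Sgce had levels of 4130, 3630 and 3070 in P1 and 952, 720 and 672 at day 0. Its imprinted neighbour Peg10, derived from a retrotransposon, was at 138, 130 and 106 in P1 and at 55.8, 30.0 and 30.0 at day 0 (1.75 ± 0.26). Ppp1r9a, a neurabin that is imprinted in some tissues, fell by 3.52 ± 0.35, with only P1 replicate 3 clearly above the floor (63.7) and 553, 389 and 402 at day 0. The 4 tested imprinted genes thus did not move as 1 group: 2 rose, 1 fell and 1 depended on the scaling (Asb4).

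Among the other large falls, Coro2a, an actin-binding coronin, was at 30.0, 16 and 30.0 in P1 libraries and at 9120, 9580 and 10800 in day 0 libraries. No P1 library was above the floor, which made Coro2a at least 327-fold lower. Retreg1, a receptor for the turnover of endoplasmic reticulum, was at 30.0, 62.8 and 91.9 in P1 and at 3030, 2780 and 2900 at day 0 (-5.70 ± 0.29, limma adjusted p 2.26e-11). Nipal2, of a family of magnesium transporters, fell by 5.65 ± 0.23, and Trim14, an adaptor of antiviral signalling, by 5.21 ± 0.27. Ankrd33b was at least 23.8-fold lower in P1 and Gm16485, which lies next to Pgr, at least 29.0-fold lower. Coro2a and Trim14 both share exon bases with Gm16731 on the opposite strand.

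Large falls also touched metabolism and chromatin. Hsdl2, a peroxisomal dehydrogenase, had levels of 693, 532 and 695 in P1, against 8290, 8210 and 7930 at day 0, and fell by 3.68 ± 0.10 log2 units (limma adjusted p 1.19e-14). Chd7, a chromatin remodeller, was at 136, 64.4 and 142 in P1 and at 1340, 1640 and 1440 at day 0 (-3.77 ± 0.30). Dnaja1, a co-chaperone of Hsp70, was at 7910, 6810 and 8660 in P1 and at 27300, 26800 and 26200 at day 0 (-1.79 ± 0.09). In each, all P1 libraries lay below all day 0 libraries. Of the other lipid genes, Pon3, a lactonase carried on lipoproteins, rose by 0.91 ± 0.17. In the list for transcription and chromatin factors, 2 of 10 rose (Foxp2 and Runx1t1, a corepressor that restrains adipogenesis) and Chd7 alone fell in all 3 scalings.

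Leukocyte genes were called lower about as often as all gene models in the deposited scaling, 5 of 8 against 57.3%. Cd72, a receptor of B cells and macrophages, had levels of 51.9, 30.0 and 30.0 in P1 and 263, 162 and 259 at day 0, and fell by 2.63 ± 0.35 log2 units (limma adjusted p 4.42e-06). Cd72 shares 1423 exon bases with Tesk1 on the opposite strand, so its reads may include those of Tesk1. Lyn, a Src-family kinase, was at 937, 794 and 1080 in P1 and at 1930, 2360 and 2220 at day 0 (-1.22 ± 0.14). Bach2, a transcription factor of lymphocytes, was at 30.0, 30.0 and 34.7 in P1 and at 195, 73.5 and 193 at day 0 (-2.16 ± 0.44). Of the 8 tested leukocyte genes, 3 fell, 1 rose (Atp6v0d2) and 4 depended on the scaling, among them Irf5, Tfec and Otulinl. Their median was -0.92 against -0.78, and 24.2% of all gene models fell in all scalings.

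The summed level of 7 leukocyte markers was 1110 to 1440 in P1 and 2650 to 2950 at day 0, with 3 and 4 of them above the floor in all libraries. Lyn made up most of both sums, at 794 to 1080 in P1 and 1930 to 2360 at day 0. As deposited, Irf5 (0.22) and Tfec (0.03) were not called. Sit1 and Pax5, which mark lymphocytes, were at the floor in both groups, and Tfec was at the floor at day 0. Among genes of innate signalling, Birc3, an inhibitor of apoptosis in the NF-kB pathway, was at 671, 568 and 714 in P1 and at 3530, 3570 and 3320 at day 0 (-2.42 ± 0.12). Its neighbour Birc2 fell by 1.57 ± 0.18. Casp12, a caspase of the endoplasmic reticulum, rose by 1.26 ± 0.18, at 1810, 1530 and 2130 in P1 and 964, 678 and 661 at day 0. Of the 9 tested genes of this list, 2 rose and 3 fell in all scalings, beside 8.11% and 24.2% of all gene models, with a median of -0.62.

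Calls of cell cycle genes depended largely on the scaling. Melk, a mitotic kinase, had levels of 157, 113 and 159 in P1 and 50.9, 140 and 134 at day 0, and Smc2, a condensin subunit, 500, 494 and 604 in P1 and 698, 518 and 400 at day 0. Both overlapped between the groups and were called higher only after rescaling. Ccne2, a cyclin of S phase entry, was at 245, 313 and 258 in P1 and at 327, 327 and 272 at day 0. Its difference was -0.19 as deposited and 0.70 by quantiles, where it was called higher. Of 17 tested genes of cell cycle and repair, 1 rose (Rad1, a clamp subunit of the DNA damage checkpoint, 0.95 ± 0.15) and 2 fell (Nbn, a sensor of DNA breaks, -1.11 ± 0.13, and Rad23b, of excision repair, -1.19 ± 0.14) in all scalings, beside 8.11% and 24.2% of all gene models. The calls of 11 others depended on the scaling and 3 were not called in any. The summed level of 4 proliferation markers was 950 to 1050 in P1 and 916 to 1120 at day 0.

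Caveolae, pits of the plasma membrane, are built by caveolins. Cav2 had levels of 3170, 2820 and 3850 in P1, against 22500, 22700 and 20200 at day 0, and fell by 2.74 ± 0.13 log2 units (limma adjusted p 5.71e-12). Cav1, its partner, was at 12600, 9930 and 15600 in P1 and at 24700, 24100 and 23800 at day 0. All P1 libraries of Cav1 were below all day 0 libraries as deposited (-0.95 ± 0.16), but the difference was 0.03 by quantiles and was called in neither rescaling. Among actin regulators, Rai14 rose by 1.46 ± 0.11, and Tes (-1.15 ± 0.11) and Wasl, an activator of actin branching (-1.01 ± 0.12), fell. Of 16 tested members of the caveolae and actin list, 1 rose and 5 fell in all 3 scalings, near the 8.11% and 24.2% of all gene models, with a median of -0.73 against -0.78.

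All 13 mitochondrially encoded genes, which encode subunits of respiratory complexes I, III and IV and of ATP synthase, had lower levels in every P1 library than in any day 0 library. The same held for 58.4% of all tested gene models. The median difference was -1.42, against -0.63 for gene models above the floor everywhere. mt-Nd5, of complex I, had levels of 11800, 8460 and 9210 in P1 and 28300, 29500 and 31900 at day 0, the largest difference of the 13 (-1.62 ± 0.18, limma adjusted p 4.22e-07). mt-Cytb, of complex III, was at 38800, 27000 and 31200 in P1 and at 84000, 92600 and 87200 at day 0 (-1.46 ± 0.16). mt-Co1, of complex IV, was at 51000, 33900 and 38900 in P1 and at 112000, 117000 and 114000 at day 0 (-1.49 ± 0.18). P1 replicate 2 had the lowest P1 level in all of these genes but mt-Nd4l.

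Scaling changed the size of this difference. After median scaling all 13 were still called lower, with a median of -0.75, and after quantile normalization 10 were called lower, with a median of -0.58. Of all tested gene models, 31.0% and 25.5% were called lower in these scalings. The calls of mt-Nd1, mt-Co3 and mt-Atp6 were lost by quantiles. Adjacent mitochondrial genes are cut from shared transcripts, and mt-Atp6 and mt-Atp8 overlap, so the 13 are not independent measurements. Nuclear genes of the respiratory chain did not show a like pattern in all scalings: of 8 tested, 1 fell (Ndufa4, a subunit of complex IV, -0.95 ± 0.11) and 0 rose, with a median of -0.49 as deposited and 0.16 by quantiles. A difference between the nuclear and the mitochondrial list was not tested.

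**Figure D4:**
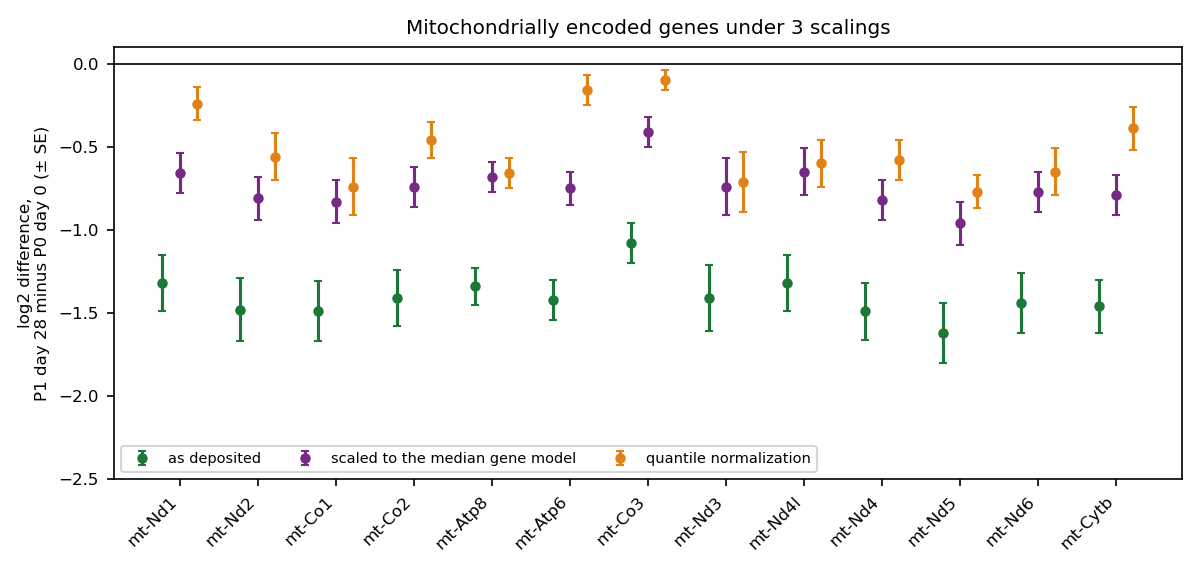
Difference in log2 level between P1 day 28 and P0 day 0 for the 13 mitochondrially encoded genes in the deposited scaling, after scaling to the median gene model and after quantile normalization. Bars are ± SE from the limma fit of all 21 libraries, with 3 libraries per group. All points lie below 0. The list's medians are -1.42, -0.75 and -0.58 in these scalings.

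Genes of protein synthesis and folding moved in both directions. Asns, which makes asparagine and responds to amino acid shortage, had levels of 3850, 3460 and 3320 in P1 and 1880, 1950 and 2140 at day 0, a rise of 0.83 ± 0.07 log2 units (limma adjusted p 2.48e-08). Tars, which charges tRNA with threonine, rose by 0.42 ± 0.09. Nol6, of ribosome assembly, fell by 1.24 ± 0.18, at 631, 498 and 918 in P1 and 1520, 1460 and 1700 at day 0. Of 9 tested genes of translation, 2 rose and 2 fell in all scalings, and of 8 of protein folding, 2 rose and 1 fell, beside 8.11% and 24.2% of all gene models. The other translation gene that fell was Rpl30, a ribosomal protein, at 80.1, 1280 and 125 in P1 and 2990, 2700 and 2740 at day 0 (-3.59 ± 1.06, limma adjusted p 0.00664). P1 replicate 2 stood far above the other P1 libraries of Rpl30, and the difference was -2.82 without P1 replicate 1 and -4.81 without P1 replicate 2. The folding gene that fell was Dnaja1, described above. The medians were -0.45 for translation and -0.48 for folding. Of 9 tested genes of lipid transport and metabolism, 2 rose and 1 fell (median -0.87), and of 4 of the lysosomal proton pump, 1 rose and 0 fell (median -0.12). Of the 2 tested carbonic anhydrases, Car8 rose and Car9 was not called in any scaling. The medians were -0.31 for cell cycle genes, -0.36 for transcription and chromatin factors and -0.06 for imprinted genes.

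The P1 cells were also set beside unpassaged cells of day 28 (P0 day 28), the stage at which the P1 line was passaged. In limma, 1144 gene models (14.7%) differed between P1 and P0 day 28, 144 (1.85%) higher and 1000 (12.9%) lower in P1, with a median shift of -0.27. Between P0 day 28 and day 0, 4683 (60.3%) differed. These comparisons share libraries with the main one, so their values are given only side by side. Among the 402 named-region genes, 17 were called higher and 135 lower in P1 than in P0 day 28, and 17 and 49 of them held in all 3 scalings. The share of all gene models that held in all 3 was not counted for this comparison. Over all gene models, dropping P0 day 28 replicate 3 left 748 calls, and fitting only these 6 libraries left 528.

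Several genes with large differences from day 0 had differences of like size at day 28 of primary culture. C1qtnf3 was 6.31 above day 0 in P1 and 6.11 above it in P0 day 28, and Prlr was -10.06 and -10.10 from day 0. Foxp2 (2.51 and 2.58), Npr3 (2.47 and 2.22), Nr4a3 (-5.49 and -5.51), Nipal2 (-5.65 and -5.63) and Tspan12 (-2.02 and -1.98) are given as pairs in the same order, and limma called none of these 7 genes between P1 and P0 day 28 (adjusted p 0.626 to 1.0). Prlr, Nr4a3 and Nipal2 were at or near the floor in most P1 and P0 day 28 libraries, so their like differences do not show like levels. In the medians by day, Klf4 had fallen to 385 on day 3 of primary culture, against 13400 at day 0, and Aqp3 was at the floor from day 3 on. Esrp1 fell more slowly, with medians of 2130 on day 3, 986 on day 7 and 85.1 on day 14.

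Some genes stood higher in P1 than in P0 day 28. Car8 had levels of 4170, 3360 and 5540 in P1 and 572, 1360 and 221 in P0 day 28 (2.94 ± 0.49, limma adjusted p 0.000509), and the difference of P0 day 28 from day 0 was not called (-1.02, 0.081). Met was at 1140, 1020 and 993 in P1 and at 371, 630 and 310 in P0 day 28 (1.33 ± 0.27, adjusted p 0.00261), and so lay between P0 day 28 and day 0. Cav1 (1.16 ± 0.16), Gem (1.63 ± 0.37) and Klf10 (0.52 ± 0.10) likewise lay between them as deposited. Peg10 (1.54 ± 0.26) and Fam3c (0.91 ± 0.13) were higher in P1 than in either group. In a fit of P1 and P0 day 28 alone, Klf10 and Peg10 were called (adjusted p 0.0315 and 0.0448), and Car8, Met, Cav1, Gem and Fam3c were not (0.0675 to 0.228).

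Genes lower in P1 than in P0 day 28 included Atp6v0d2 and Cd72, whose medians were higher on day 28 of primary culture than at day 0. Atp6v0d2 was at 222, 301 and 277 in P1 and at 1970, 1920 and 3410 in P0 day 28 (-3.15 ± 0.42). Cd72 was at 51.9, 30.0 and 30.0 in P1 and at 924, 636 and 852 in P0 day 28 (-4.46 ± 0.35), so that P1 was below both P0 day 28 and day 0. Of the 8 tested leukocyte genes, 7 were called lower in P1 than in P0 day 28 and 0 higher, and of the 10 matrix genes 6 lower and 0 higher, beside 12.9% and 1.85% of all gene models. Both lists come from the named regions, where lower calls were more frequent, with 135 of 402 genes lower and 17 higher. Of these matrix calls, only Col28a1 (-2.53) and Tfpi2 (-1.02) held in all 3 scalings, and a fit of P1 and P0 day 28 alone called neither (adjusted p 0.0641 and 0.138). Col1a2 differed by 0.0 by quantiles, and the calls of Col1a2, Svep1 and Thsd7a were each lost without P1 replicate 3 or P0 day 28 replicate 3, among others (adjusted p up to 0.185 in Col1a2, 0.112 in Svep1 and 0.103 in Thsd7a). The summed leukocyte markers were 1110 to 1440 in P1 and 4910 to 6770 in P0 day 28.

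**Figure D5:**
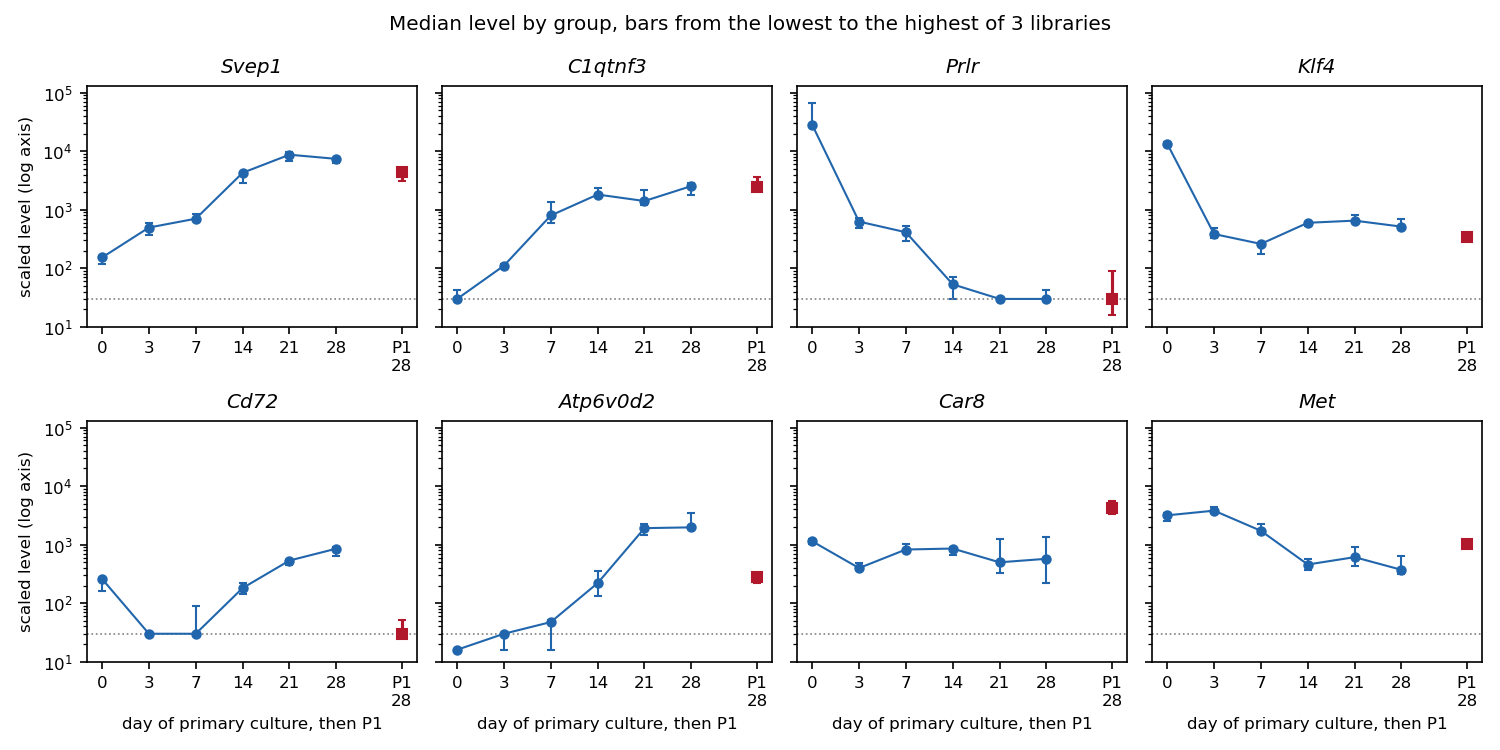
Median scaled level (log axis) of 8 genes on days 0 to 28 of primary culture (blue) and in P1 (red square), with bars from the lowest to the highest of 3 libraries and a dotted line at the floor of 30. Svep1 and C1qtnf3 stayed high and Prlr and Klf4 stayed low in P1, Cd72 and Atp6v0d2 were lower in P1 than on day 28, and Car8 and Met were higher.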

How the data were processed

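RNA of 21 libraries was sequenced after amplification with a SMART-Seq kit that does not mark strand, per the labels' protocols, with a second extraction kit for small samples. The labels do not tell which libraries used it, so its part in the differences was not tested. The submitters' processing notes name the build GRCm39. No aligner or counter is named in the labels. What the authors deposited is a single table of log2 expression covering 30961 gene models, with every row centred on a sum of 0. From the spacing of low values, scaled levels and reads were recovered (30466 gene models; 100.0% of 10653 values were whole within 0.1 read). Reads under the floor are missing, so no count test was run. This recovery, and limma on simulated data, were tested with known answers.

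The main test was limma 3.58.1 (R 4.3.3), with a mean-variance trend, on log2 levels of all 21 libraries in 7 groups. It used 7767 gene models above 30 in at least 3 libraries, with Benjamini-Hochberg adjustment over all of them. A gene above 30 only in the day 0 libraries passes this filter and cannot be called higher in P1. Calls had an adjusted p under 0.05. Symbols and order came from GENCODE M21 (GRCm38), where 28928 IDs were found. The named genes were the 15 largest called rises and falls plus the members of 19 lists. Members and lists were chosen with earlier results of these data known. Of 191 list entries, 168 were tested. Alternatives were quantile and median scaling, filters, floors, a pseudocount of 16, fits of fewer groups, each library left out and a replicate block. Same-numbered libraries of P1 and day 0 had deviations correlated at 0.101, -0.031 and 0.045. Promoters came from RefSeq, with an entry for 296 of 415 tested named genes.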

Additional observations from a re-analysis of the deposited data

How the results depend on the processing

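Scaling moved the split of directions. Quantile normalization gave 2003 higher and 1979 lower gene models in P1 against day 0, with 147 and 114 of the named-region genes, and median scaling gave 1838 and 2406, with 143 and 118. Genes that changed sign after quantile normalization included Cav1 (0.03), Ccne2 (0.70) and Tfpi2 (0.43, and 0.16 after median scaling). Further genes with small differences can change sign under either rescaling. The median over gene models never at the floor was -0.63 as deposited, 0.31 by quantiles and 0.03 by the median. The cause was not tested. Other settings left the 5080 calls at 7015 without a filter (more gene models tested), 4008 with the floor exceeded in 6 libraries (fewer tested), 5095 with the lower floor raised, 5095 with a pseudocount, 4618 in a fit of both groups alone and 4704 to 4928 with 1 library left out. The replicate block gave 5064, and the replicate numbers were not shown to pair the libraries. For P1 against P0 day 28, the 1144 calls became 919 by quantiles, 784 by the median and 528 in a fit of those groups alone, and 748 to 1070 with 1 library left out. Of 118 tested genes named for the text, 103 kept direction and call under quantile normalization and 107 under median scaling. These numbers were largely fixed in advance, since genes were said to have risen or fallen only where the call held in all 3 scalings. Among all tested nuclear genes of the named regions, all 67 higher calls but only 110 of 221 lower calls held in all 3. Genes under about 32.0 to 40.5 reads in P1 could not be measured, against 18 to 24.6 reads at day 0, so low genes are better measured at day 0.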

Other observations

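Some genes had a single library far from the others of its group. Ndufa5, a subunit of complex I, had levels of 933, 16 and 1120 in P1 and 16, 1340 and 1650 at day 0. Cox6c, a subunit of complex IV, had levels of 1430, 1520 and 30.0 in P1 and 50.9, 1610 and 1940 at day 0. In both genes 1 library of each group stood at or far below the level of the rest of its group.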
